A study of Homo sapiens with 10 samples.

Results

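Matricellular proteins are secreted into the extracellular matrix, where they act mainly as signals to cells and not as structural fibres. The 9 genes described here are those of thrombospondin 1 and 2 (THBS1, THBS2), tenascin C (TNC), SPARC, connective tissue growth factor (CTGF), cysteine-rich angiogenic inducer 61 (CYR61), periostin (POSTN), osteopontin (SPP1) and, as the matrix glycoprotein that several of them bind or oppose, fibronectin (FN1). They were chosen by gene symbol, all 9 were found among the 58735 genes of the deposited table, and 7 had enough counts to be tested. CTGF and CYR61 are older symbols for CCN2 and CCN1.

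Poly(A) RNA was sequenced from CH157-MN cells, a long-established line derived from a human meningioma. In the ADC group the cells had been given 100 nM of a humanised antibody-drug conjugate, an antibody against the somatostatin receptor SSTR2 that carries the tubulin inhibitor MMAF, and were harvested 3 days later. The PBS group received phosphate-buffered saline, and the labels give no harvest day for it. Each group holds 5 libraries of the same single line, and the labels do not say that they were separate cultures, so the spread behind each p-value is that between libraries and may be technical.

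Fibronectin is secreted as a dimer and assembled by cells into fibrils, mainly through integrin receptors that recognise its RGD motif. Thrombospondins, tenascin C and SPARC bind to the matrix and loosen or reshape this attachment, while CTGF and CYR61 bind integrins and heparan sulphate and are textbook target genes of the co-activators YAP and TAZ, which act through TEAD transcription factors. Meningiomas make an abundant matrix in several of their subtypes, and SPARC has been studied as a marker of their invasive growth.

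Library totals were 28638057 to 36463724 counts in ADC and 28262162 to 34473795 counts in PBS. Levels are given as CPM, counts scaled to library size with TMM, and 3 counts, the most that an observed 0 allows, correspond to 0.0820 to 0.106 CPM (counting error only). This bound takes counts as independent and would be higher if both mates of a pair were counted. VIM, a gene of mesenchymal and meningothelial cells, reached 3538 ± 67 CPM in ADC and 3398 ± 123 CPM in PBS (SD, n = 5). Of 12 meningioma and arachnoid markers that include VIM, CDH2 averaged 115 CPM in ADC and 125 CPM in PBS. CDH2 was called lower (edgeR adjusted p = 0.017), with overlapping libraries. NF2 (52.1 CPM in ADC, 56.6 CPM in PBS) and KLF4 (35.7 CPM in ADC, 33.3 CPM in PBS) were expressed and not called. SSTR1 and MUC1 had at most 33 counts per library and CDH11 at most 15 counts. PGR and S100B had 0 counts in every library, PTGDS had at most 1 count and DSP at most 4 counts. SSTR2, the target of the conjugate, had 10 to 20 counts per ADC library and 3 to 22 counts per PBS library and was not called (log2 fold change 0.54, SE 0.50, edgeR adjusted p = 0.50). Without PBS replicate 3 its log2 fold change was 1.205 (adjusted p = 0.12).

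Tenascin C and CTGF were higher in ADC libraries, both thrombospondins were lower, and FN1, SPARC and CYR61 were not called. TNC rose by 40.8%, CTGF rose by 14.9%, THBS1 fell to 0.769 and THBS2 to 0.850 of the PBS level, and these 4 genes were those whose libraries did not overlap between the groups. Of all 14504 genes tested, 20.8% were called in either direction, 10.8% higher and 10% lower, and 14.2% had groups that did not overlap. Of these calls 51.8% were higher, a share that became 63.3% with scaling to library size alone, under which the 4 calls among the members stood. The members' counts of 2 higher and 2 lower of 7 tested are read against those shares as a description only, since the genes were not a random draw and all 7 were among the 2175 highest of the 14504 by level per kilobase. In bulk RNA, fewer cells of a type and less RNA per cell cannot be told apart.

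**Figure D1:**
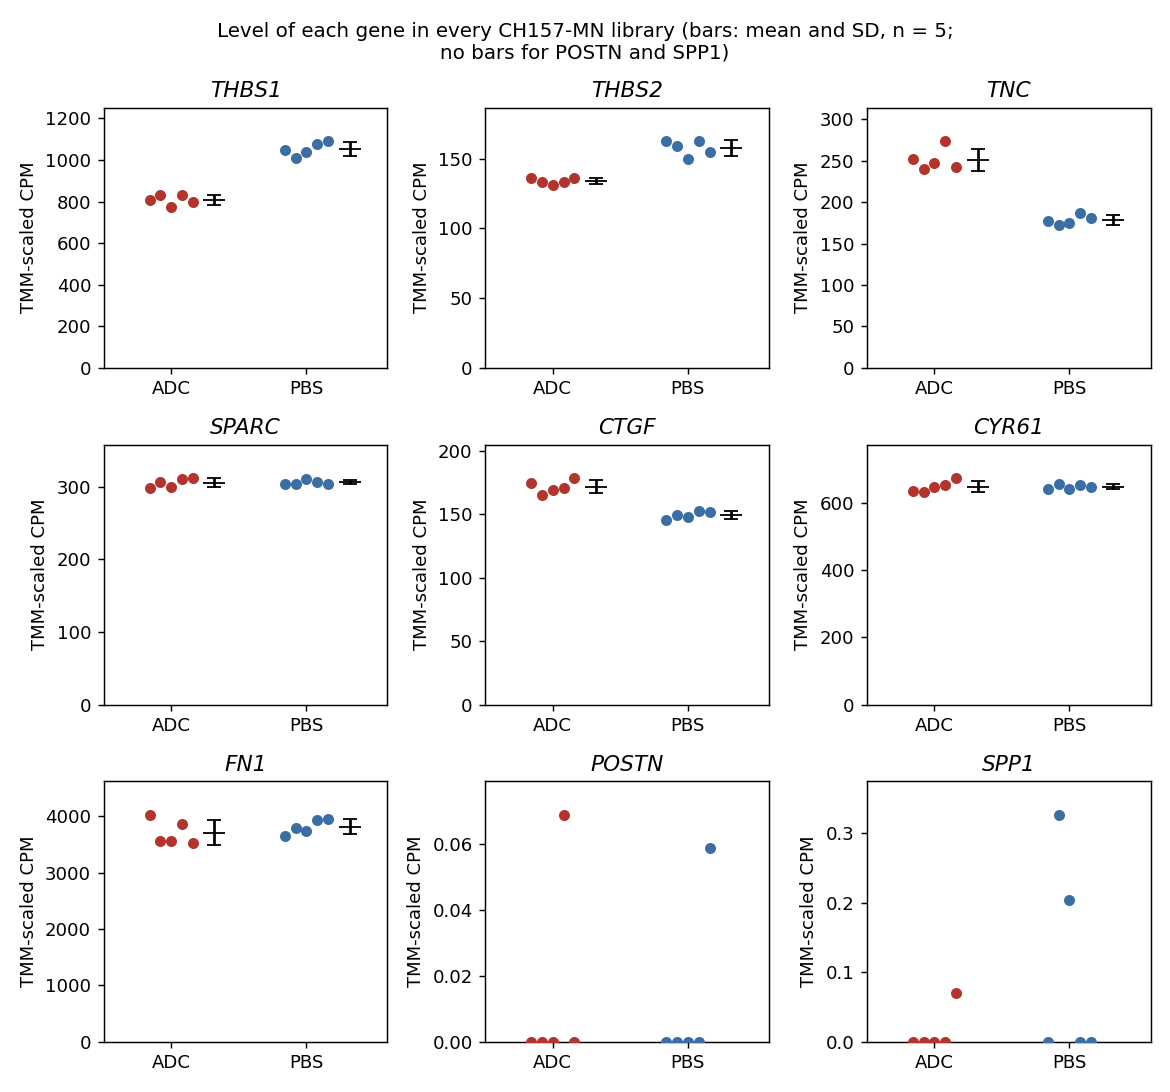
Level of each of the 9 genes in every library, in TMM-scaled CPM on axes that start at 0, with ADC left of PBS, points for libraries, and bars for the mean and SD over 5 libraries (no bars for POSTN and SPP1, which are at 0 in most libraries). The ADC points lie above all PBS points for TNC and CTGF and below all PBS points for THBS1 and THBS2.

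The 250 bases before the RefSeq start site are shown for the 4 genes that were called, because CTGF is the member best known as a direct TEAD target. Capitals mark the core TEAD motif GGAATG on either strand (GGAATG or CATTCC), and each run is printed 5′ to 3′ on the strand of the gene, on GRCh38.p14. The CTGF run is chr6:131951373-131951622 (minus strand), the THBS1 run is chr15:39580829-39581078 (plus strand), the THBS2 run is chr6:169253847-169254096 (minus strand) and the TNC run is chr9:115118158-115118407 (minus strand). Each ends at the base before the RefSeq start, which matches the gene start of the deposited table for THBS1 and lies 1 base inside the gene for CTGF, 100 bases inside for TNC and 198 bases inside for THBS2, where longer transcripts begin further upstream.
CTGF: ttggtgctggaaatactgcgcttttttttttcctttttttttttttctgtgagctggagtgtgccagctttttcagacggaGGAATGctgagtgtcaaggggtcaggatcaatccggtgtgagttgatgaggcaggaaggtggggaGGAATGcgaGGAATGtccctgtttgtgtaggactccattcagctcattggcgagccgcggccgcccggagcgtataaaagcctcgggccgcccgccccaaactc
THBS1: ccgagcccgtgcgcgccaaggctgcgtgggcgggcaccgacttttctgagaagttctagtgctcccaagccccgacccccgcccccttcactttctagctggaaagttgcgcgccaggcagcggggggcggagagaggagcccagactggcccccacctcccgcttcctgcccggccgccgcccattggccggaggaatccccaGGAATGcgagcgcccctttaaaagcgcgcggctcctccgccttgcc
THBS2: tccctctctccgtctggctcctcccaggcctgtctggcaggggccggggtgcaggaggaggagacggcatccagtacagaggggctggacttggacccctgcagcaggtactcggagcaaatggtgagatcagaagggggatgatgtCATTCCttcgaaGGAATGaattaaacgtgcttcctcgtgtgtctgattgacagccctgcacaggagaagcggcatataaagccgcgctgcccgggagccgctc
TNC: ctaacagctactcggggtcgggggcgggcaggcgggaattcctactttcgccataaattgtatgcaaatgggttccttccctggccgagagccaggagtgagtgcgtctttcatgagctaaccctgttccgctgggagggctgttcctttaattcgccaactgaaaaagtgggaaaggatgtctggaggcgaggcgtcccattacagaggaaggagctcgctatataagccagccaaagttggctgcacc

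The CTGF run held 3 matches, which begin at -169, -104 and -95, counting the base before the start as -1. THBS2 held 2 matches, at -103 on the reverse strand and -91, and THBS1 held 1 match at -46. In the 300-base windows that run 50 bases past the start, RefSeq promoters were found for 8 of the 9 members, all except CYR61, and 4 of the 8 held the motif: CTGF, THBS1, THBS2 and SPARC, whose match was at -17. The RefSeq start of SPARC lies 250 bases inside the gene of the deposited table, so its match lies within that gene. Of all 35116 windows 14.0% held at least 1 match, 1.37% at least 2 matches and 0.128% at least 3. The windows with a match therefore belong to 1 gene that rose, 2 genes that fell and 1 gene that was not called, and TNC, the member with the largest change, had no match in its window. A match describes letters in the window and is not a measured binding site.

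Other motifs were searched on both strands in the same windows. The TATA box TATAAA was found in THBS2, CTGF and POSTN, against 11.5% of all windows, and the AP-1 motif TGANTCA was found in POSTN, against 7.71%. For the TATA box only these exact letters were searched. A window that holds only a variant of them was not counted, so the genes not named may still have a TATA box. A loose NF-kB pattern, G, G, G, any 5 bases, C and C, was found in THBS2, TNC, CTGF and FN1, against 58.7%. In CTGF the NF-kB match overlaps the TEAD match at -95, and in FN1 several NF-kB matches overlap each other.

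The thrombospondins are trimeric glycoproteins that bind CD47 and integrins and restrain the growth of blood vessels, and thrombospondin 1 also activates latent TGF-beta. THBS1 had 808, 832, 774, 831 and 800 CPM in ADC libraries 1 to 5, against 1050, 1008, 1040, 1076 and 1089 CPM in PBS libraries 1 to 5. The highest ADC library lay below the lowest PBS library by far more than the spread within either group. The log2 fold change of THBS1 was -0.38 (SE 0.03, 95% interval -0.44 to -0.32, edgeR quasi-likelihood test with Benjamini-Hochberg adjustment over 14504 genes, adjusted p = 5.2e-11).

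THBS2 encodes the close relative thrombospondin 2, which binds the protease MMP2 and is cleared through LRP1 but does not activate TGF-beta. It had 136, 133, 131, 133 and 136 CPM in the ADC libraries, against 162, 159, 149, 162 and 155 CPM in the PBS libraries. All ADC libraries were again below all PBS libraries, with a narrower gap than for THBS1. Its log2 fold change was -0.23 (SE 0.03, 95% interval -0.30 to -0.16, edgeR adjusted p = 7.4e-06).

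Tenascin C is a many-armed glycoprotein of wounds and tumours that weakens adhesion to fibronectin. TNC had 252.5, 240, 247, 273 and 243 CPM in the ADC libraries, against 177, 172, 175, 187 and 181 CPM in the PBS libraries. The ADC libraries all stood above the PBS libraries, and ADC replicate 4 and PBS replicate 4 were the highest of their groups. The log2 fold change of TNC was 0.49 (SE 0.04, 95% interval 0.42 to 0.57, edgeR adjusted p = 8.1e-12), which 9.85% of all tested genes exceeded in size.

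CTGF and CYR61 are paralogs of the CCN family and share the same domain plan. CTGF had 175, 165, 169, 171 and 178 CPM in the ADC libraries, against 145, 150, 148, 152 and 152 CPM in the PBS libraries. The groups did not overlap, although the difference was small (log2 fold change 0.20, SE 0.03, 95% interval 0.13 to 0.27, edgeR adjusted p = 4.5e-05). CYR61 had 636, 633, 649, 654 and 673 CPM in the ADC libraries, against 641, 658, 642, 654 and 647 CPM in the PBS libraries. Here the ranges overlapped almost entirely, and CYR61 was not called (log2 fold change 0.00, SE 0.03, adjusted p = 0.98), with a 95% interval of the fold from 0.961 to 1.04.

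SPARC encodes a collagen-binding glycoprotein that regulates matrix assembly. SPARC had 298, 307, 300, 311 and 312 CPM in the ADC libraries, against 304, 304, 311, 307 and 304 CPM in the PBS libraries. The PBS values lay within the ADC range, and the gene was not called (log2 fold change -0.00, SE 0.03, adjusted p = 0.96). The 95% interval of its fold ran from 0.957 to 1.04, so a change beyond those bounds was outside what these libraries allow at that level.

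FN1 had the highest CPM of the 9 genes, a scale that does not correct for its length, and ranked 12th of the 14504 tested genes on it. It had 4013, 3565, 3565, 3867 and 3515 CPM in the ADC libraries, against 3647, 3789, 3738, 3925 and 3958 CPM in the PBS libraries. The ADC libraries were both the highest and the lowest of the 10, with ADC replicates 1 and 4 above the other three, and the coefficient of variation was 5.98% in ADC and 3.40% in PBS. FN1 was not called (log2 fold change -0.04, SE 0.03, adjusted p = 0.41), and the 95% interval of the fold was 0.929 to 1.02. Counts were summed over the whole gene, for which GENCODE release 29 lists 27 transcripts, so splice forms of fibronectin could not be compared.

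Periostin and osteopontin, a pair of integrin ligands, were close to the limit of detection and were not tested. POSTN had 2 counts in ADC replicate 4, 2 counts in PBS replicate 5 and 0 counts in the other 8 libraries. SPP1 had 2 counts in ADC replicate 5 and 0 counts in the other 4 ADC libraries, against 11 counts in PBS replicate 2, 6 counts in PBS replicate 3 and 0 counts in the other 3 PBS libraries. When no filter on low counts was applied, neither passed the test (edgeR adjusted p = 0.99 for POSTN and 0.25 for SPP1).

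Set against all genes, the changes of the called members were of middling to large size. The median absolute log2 fold change was 0.123 over all tested genes and 0.228 over the called ones. TNC (0.49) and THBS1 (-0.38) were well beyond the median of called genes, THBS2 (-0.23) stood at it and CTGF (0.20) was a little below it.

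The spread between libraries differed among the members. The coefficient of variation of THBS1 was 2.97% in ADC and 3.0% in PBS, and that of THBS2 was 1.6% in ADC and 3.53% in PBS. TNC varied by 5.25% in ADC and 3.29% in PBS, and CTGF by 2.90% in ADC and 2.08% in PBS. SPARC, at 2.01% in ADC and 0.981% in PBS, and CYR61, at 2.47% in ADC and 1.2% in PBS, were among the steadiest. FN1 and TNC therefore varied most among the ADC libraries, and the change of TNC was several times its spread while that of FN1 was within it.

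**Figure D2:**
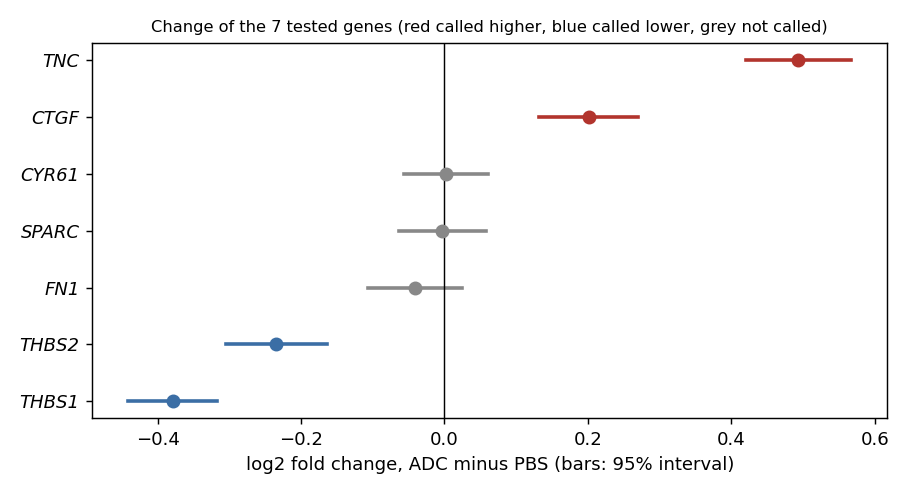
Log2 fold change, ADC minus PBS, of the 7 tested genes with 95% intervals from the edgeR fit. TNC (0.49) and CTGF (0.20) lie right of 0, THBS1 (-0.38) and THBS2 (-0.23) lie left of it, and the intervals of CYR61, SPARC and FN1 include 0.

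The paralogs of each pair did not move by the same factor. The count ratio of THBS1 to THBS2, taken within a library and so independent of scaling, was 5.93, 6.25, 5.90, 6.24 and 5.88 in the ADC libraries, against 6.47, 6.32, 6.96, 6.63 and 7.04 in the PBS libraries. All ADC ratios were below all PBS ratios. The mean log2 ratio was 2.59 ± 0.04 in ADC and 2.74 ± 0.07 in PBS (SD, n = 5 each), a difference of -0.15 (exact permutation test, two-sided, p = 0.00794, the smallest that 5 against 5 libraries can give, and adjusted p = 0.00794 over the 2 ratios).

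The count ratio of CTGF to CYR61 was 0.275, 0.261, 0.261, 0.261 and 0.265 in the ADC libraries, against 0.226, 0.227, 0.230, 0.233 and 0.235 in the PBS libraries. Again the groups did not overlap, here with ADC above PBS. The mean log2 ratio was -1.92 ± 0.03 in ADC and -2.12 ± 0.02 in PBS (SD, n = 5 each), a difference of 0.20 (exact permutation test, two-sided, p = 0.00794, adjusted p = 0.00794). With the replicate number as a pair, the smallest p that 5 pairs can give is 0.0625, and both ratios reached it.

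**Figure D3:**
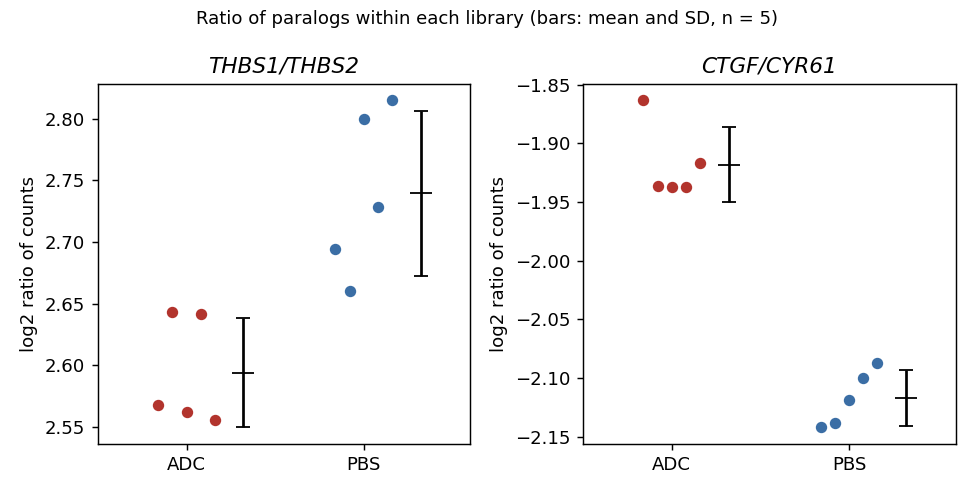
Log2 ratio of counts of THBS1 to THBS2 (left panel) and of CTGF to CYR61 (right panel) in each library, with the mean and SD over 5 libraries (the axes do not start at 0). The ADC points lie below the PBS points for the thrombospondins and above them for the CCN pair.

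Levels were compared between genes as CPM per kilobase of exons. The length is the union of exons over all transcripts of a gene in GENCODE release 29, not that of the mRNA made. It was 17315 bases over 27 transcripts for FN1 and 4831 bases over 9 for SPARC. For CYR61 it was 2455 bases over 2 transcripts and for CTGF 2339 bases over 1. The order between genes depends on these lengths and could differ with mRNA lengths, which were not known. On this scale the order in ADC was CYR61 (264 ± 7), FN1 (214 ± 13), THBS1 (88.4 ± 2.6), CTGF (73.4 ± 2.1), SPARC (63.3 ± 1.3), TNC (26.1 ± 1.4) and THBS2 (20.9 ± 0.3), with no overlap between neighbours (SD, n = 5). In PBS the order was CYR61 (264 ± 3), FN1 (220 ± 7), THBS1 (115 ± 3), CTGF (63.9 ± 1.3), SPARC (63.4 ± 0.6), THBS2 (24.6 ± 0.9) and TNC (18.5 ± 0.6), where CTGF and SPARC overlapped and the other neighbours did not. TNC and THBS2 thus stood in opposite order in the 2 groups, and CTGF stood clear of SPARC in ADC libraries. POSTN and SPP1 were at or near 0 on this scale in both groups.

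**Figure D4:**
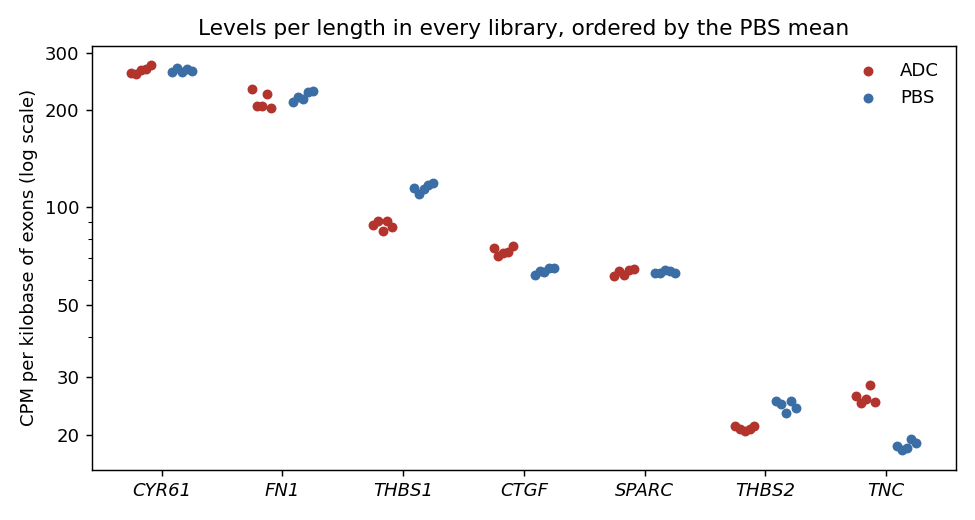
Levels of the 7 tested genes in CPM per kilobase of exons, on a log axis, in every library, ordered by the PBS mean with ADC points left of PBS points. On this scale, which divides by the union of exons of a gene, CYR61 and FN1 are highest. TNC lies above THBS2 in ADC libraries and below it in PBS libraries.

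Together the 9 genes took 0.584% to 0.641% of all counts in ADC libraries and 0.610% to 0.647% in PBS libraries. FN1 made up 60.0% to 63.5% of the members' counts in ADC and 59.5% to 61.0% in PBS. The summed share therefore overlapped between the groups, while its composition differed in the genes named above. No member shares exonic bases with a gene on its own strand in GENCODE release 29. Genes on the other strand overlap 8.34% of the exonic bases of CTGF, 7.89% of SPARC, 7.58% of THBS1 and 1.34% of TNC, and none of those partners had more than 43 counts in any library.

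On hg38, THBS1 (ENSG00000137801) lies on chromosome 15 from 39581079 to 39599466 and THBS2 (ENSG00000186340) on chromosome 6 from 169215780 to 169254044. TNC (ENSG00000041982) lies on chromosome 9 from 115019578 to 115118257, CTGF (ENSG00000118523) on chromosome 6 from 131948176 to 131951373 and CYR61 (ENSG00000142871) on chromosome 1 from 85580761 to 85583962. SPARC (ENSG00000113140) lies on chromosome 5 from 151661096 to 151687165 and FN1 (ENSG00000115414) on chromosome 2 from 215360440 to 215436172. POSTN (ENSG00000133110) lies on chromosome 13 from 37562583 to 37598844 and SPP1 (ENSG00000118785) on chromosome 4 from 87975650 to 87983426.

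The genes most like each member were sought among 8623 protein-coding genes with a mean of at least 10 CPM, by Pearson correlation of log2 CPM over the 10 libraries. All share the same libraries, so a gene that differs between the groups will correlate with any other that does. The highest of 8623 correlations over 10 libraries are also large by selection alone, including for members that were not called. How large they would be for unrelated genes was not tested, so they are a description only. THBS1 was followed most closely by SERTAD1 (r = 0.991) and TFDP1 (r = 0.991), and THBS2 by UBAP2L (r = 0.968). TNC was followed by LAMA5 (r = 0.985) and NAV2 (r = 0.981), and CTGF by JUP (r = 0.984) and MYOF (r = 0.984). Among members that were not called, the closest were COL6A3 (r = 0.909) and PRKAA2 (r = 0.900) for FN1, HSDL1 (r = 0.883) and C19orf25 (r = 0.878) for SPARC, and NDUFB7 (r = 0.939) and ATP5F1D (r = 0.921) for CYR61. COL6A3, a chain of the type VI collagen that lies beside fibronectin fibrils, was itself not called, at 277 ± 24 CPM in ADC and 294 ± 13 CPM in PBS (SD, n = 5).

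More of the wider matricellular families were too low to test than were tested. Of 18 further genes, 10 were too low to test, among them COMP, TNR, SPOCK3 and WISP2 with 0 counts in every library. Of the 8 tested, 3 rose, 0 fell and 5 were not called (among all genes 10.8% rose and 10% fell), and the median log2 fold change was 0.16 (0.284 without PBS replicate 4), against -0.00 over all tested genes. SMOC1, a calcium-binding relative of SPARC, averaged 57.0 ± 3.8 CPM in ADC and 27.0 ± 1.3 CPM in PBS (SD, n = 5) and rose by 1.08 on the log2 scale (SE 0.06, edgeR adjusted p = 5.3e-15). SMOC1 thus changed more than any of the 7 tested members. The CCN family gene WISP1 rose at a low level, with 26 to 67 counts in ADC and 8 to 25 counts in PBS libraries (log2 fold change 1.69, SE 0.38, adjusted p = 0.0015), and FSTL1, another relative of SPARC, rose by 0.11 (SE 0.03, adjusted p = 0.010).

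Receptors through which these proteins act were also followed. Of 20 receptor genes 15 were tested, of which 9 rose, 1 fell and 5 were not called, with a median log2 fold change of 0.19. Over all tested genes 10.8% rose and 10% fell. LRP1, the endocytic receptor that clears thrombospondins, averaged 39.6 ± 5.3 CPM in ADC and 25.9 ± 2.0 CPM in PBS (SD, n = 5) and rose by 0.61 (SE 0.08, edgeR adjusted p = 4.3e-07). STAT6 and LRP1-AS together overlap 0.821% of its exonic bases on the other strand. The more highly counted partner reached 5304 counts in a library, while LRP1 had 1098 to 1571 counts in ADC and 682 to 980 counts in PBS libraries. The part of this overlap in the change of LRP1 was not tested. Integrin alpha 3 (ITGA3) rose by 0.24 (SE 0.03, adjusted p = 5.3e-07), and integrin beta 8 (ITGB8), which activates latent TGF-beta, averaged 8.44 ± 1.79 CPM in ADC and 3.57 ± 1.41 CPM in PBS and rose by 1.23 (SE 0.18, adjusted p = 6.1e-06). The laminin receptor chain ITGA6 was the single receptor gene that fell (-0.21, SE 0.04, adjusted p = 4.7e-05).

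The subunits of the classical fibronectin receptor, chosen here after their values were seen, did not pass the test: the log2 fold change was 0.01 (SE 0.03) for ITGA5 and 0.03 (SE 0.03) for ITGB1. CD47, the thrombospondin receptor, averaged 107 ± 5 CPM in ADC and 97.9 ± 4.5 CPM in PBS (SD, n = 5), and rose by 0.13 (SE 0.04, edgeR adjusted p = 0.029) with overlapping libraries. CD36, the other thrombospondin receptor, had at most 2 counts in ADC libraries and 0 in PBS libraries, and ITGA9, a chain of a tenascin C receptor, had 0 to 3 counts in ADC and 0 to 10 counts in PBS libraries. CD47, CD36 and ITGA9 were likewise named after their values were seen.

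Beside CTGF and CYR61, 20 further YAP and TAZ target genes were followed. Of 19 tested, 5 rose, 5 fell and 9 were not called, with a median log2 fold change of 0.05, against 10.8% higher and 10% lower over all tested genes. Without single libraries the list's median ranged from 0.0216 (without ADC replicate 5) to 0.0814 (without PBS replicate 5), with 4 to 5 genes called higher and 5 to 6 called lower. NT5E, an ectoenzyme that makes adenosine, rose by 0.33 (SE 0.03, edgeR adjusted p = 2.6e-09), GADD45A rose by 0.29 (SE 0.04) and the membrane repair gene MYOF rose by 0.18 (SE 0.03). IGFBP3, which binds insulin-like growth factors, averaged 89.5 ± 1.8 CPM in ADC and 156 ± 5 CPM in PBS (SD, n = 5) and fell by 0.81 (SE 0.04, adjusted p = 1.2e-16), the receptor tyrosine kinase AXL fell by 0.34 (SE 0.03) and the matrix gene CCDC80 fell by 0.33 (SE 0.03).

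TGF-beta induces several of the members, and thrombospondin 1 can activate it. Of 11 early TGF-beta target genes 10 were tested, of which 6 rose, 3 fell and 1 was not called, with a median log2 fold change of 0.17, beside 10.8% and 10% of all tested genes that rose and fell. PMEPA1, a feedback inhibitor of the pathway, rose by 0.36 (SE 0.06, edgeR adjusted p = 4.7e-05), JUNB rose by 0.27 (SE 0.05) and LTBP2 rose by 0.19 (SE 0.04). The others that rose were TGIF1, by 0.28 (SE 0.07, adjusted p = 0.0042), SMURF1, by 0.23 (SE 0.06, adjusted p = 0.0061), and SKIL, by 0.15 (SE 0.05, adjusted p = 0.027). Among those that fell were SKI, by 0.15 (SE 0.04, adjusted p = 0.0069), and SMAD7, by 0.23 (SE 0.06, adjusted p = 0.0084). Of the exonic bases of JUNB 14.2% overlap HOOK2 on the other strand, and the deposited counts do not state their strand setting. HOOK2 had up to 232 counts in a library, against at least 956 counts of JUNB. The part of this overlap in the change of JUNB was not tested.

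Genes of the collagens, fibrillins and cross-linking enzymes that build the matrix around fibronectin were also examined. Of 21 genes 18 were tested, of which 10 rose, 1 fell and 7 were not called, with a median log2 fold change of 0.22, where the shares of all tested genes were 10.8% higher and 10% lower. Without ADC replicate 4, 3 of them fell. COL1A2 (log2 fold change 1.33, SE 0.07), COL6A2 (0.45, SE 0.04) and COL6A1 (0.42, SE 0.04) had the smallest edgeR adjusted p of those that rose, up to 4.7e-10. TGM2, the transglutaminase that cross-links fibronectin, fell by 0.10 (SE 0.03, adjusted p = 0.015), and 4.9% of its exonic bases overlap RPRD1B on the other strand. RPRD1B had up to 2462 counts in a library, against at least 11008 counts of TGM2. COL6A1 averaged 659 ± 35 CPM in ADC and 492 ± 26 CPM in PBS (SD, n = 5), in contrast to FN1, whose libraries overlapped.

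**Figure D5:**
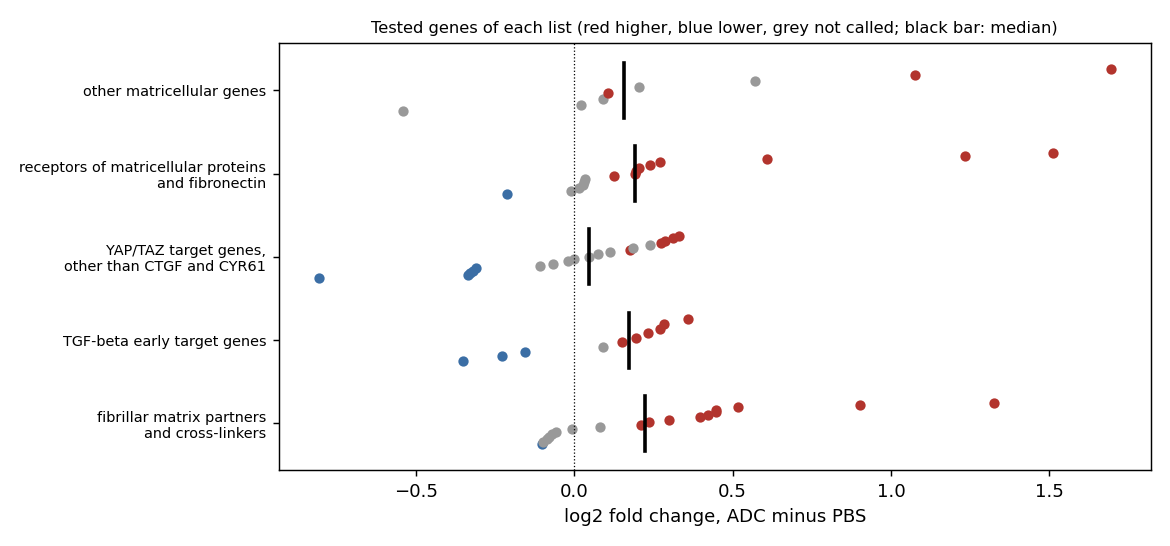
Log2 fold change, ADC minus PBS, of every tested gene in 5 lists around the members, with red for genes called higher, blue for genes called lower, grey for genes not called and a black bar for the median. The YAP and TAZ targets lie on both sides of 0, with 5 called in each direction, and the receptor and fibrillar matrix lists hold 1 gene called lower each.

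The 12 leukocyte markers summed to 2.16 to 3.01 CPM in ADC libraries and 0.613 to 2.58 CPM in PBS libraries, with CD3D, CD3E, MS4A1, LYZ and TYROBP at 0 in all. Most of this sum was CSF1R, which was not called (edgeR adjusted p = 0.081). CSF1R averaged 2.10 ± 0.34 CPM in ADC and 1.26 ± 0.68 CPM in PBS (SD, n = 5). The 8 endothelial markers summed to 3.57 to 5.22 CPM in ADC and 1.72 to 3.75 CPM in PBS, and of them PECAM1 rose, at 1.98 ± 0.34 CPM in ADC and 0.576 ± 0.112 CPM in PBS (SD, n = 5, edgeR adjusted p = 2.4e-05). The 8 glial and neuronal markers summed to 56.4 to 60.6 CPM in ADC and 51.9 to 62.0 CPM in PBS, nearly all of it MBP, which was not called, at 53.7 ± 1.8 CPM in ADC and 53.5 ± 3.7 CPM in PBS. Of this list SNAP25 rose by 0.85 on the log2 scale (SE 0.24, edgeR adjusted p = 0.012) and SYT1 by 0.73 (SE 0.23, adjusted p = 0.024), both at a few CPM. The 6 haematopoietic and epithelial keratin markers summed to at most 0.0877 CPM in ADC and 0.297 CPM in PBS. The part of these low levels in the members' changes was not tested.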

How the data were processed

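Counts per gene, whole numbers and not normalised, were deposited by the authors for 10 libraries. HISAT2, HISAT and TopHat2 appear without a role, with build hg38, in the submitters' processing notes. No source used here states the counting tool, its strand setting or the annotation. All 58735 identifiers are in GENCODE release 29, and for every gene checked for exon overlap the deposited gene length equals the union of its exons there. Promoter sequences are from RefSeq on GRCh38.p14.

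TMM scaling was used. filterByExpr removed weakly counted genes (minimum count 10 and minimum total 15). ADC was compared with PBS with the quasi-likelihood test of edgeR 4.0.16 in R 4.3.3. It is two-sided, and p-values were adjusted by Benjamini-Hochberg over 14504 genes with a threshold of 0.05. The SE was taken from the log2 fold change and the F statistic, and 95% intervals from the fit's degrees of freedom. The script was tested on simulated data, where changed genes were recovered in part and the share of false calls exceeded the nominal threshold. Ratios used exact permutation over libraries (scipy 1.17.1).

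Replicates within each group were not copies of one library, with chi-square values of 5.18 to 16.5 per degree of freedom. Counts of 2 to 21 were even in 65.4% to 67.3% of cases, against 49.0% to 50.6% of counts of 1000 or more, so both mates of a pair may be counted, and halved counts were tried.

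The members and lists were chosen with earlier results of these data known. Named genes are the members, the 3 called genes with the smallest adjusted p per list and direction, SSTR2, and the 2 genes most correlated with each tested member; other names were chosen after their values were seen. A few genes that this rule names are not reported here. The alternatives were DESeq2 1.42.0, limma-voom (limma 3.58.1), library size alone, 2 other filters, halved counts, another prior count, the replicate number as a block and leaving out each library.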

Additional observations from a re-analysis of the deposited data

Results flagged for a closer look

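Of 70 groups of 5 libraries checked, 7 held a library whose gap to the nearest other exceeded 0.71 of the group's range (Dixon's 95% critical value), where chance flags about 1 in 20 groups. For POSTN they were ADC replicate 4 at 0.0687 CPM and PBS replicate 5 at 0.0589 CPM, and for SPP1 ADC replicate 5 at 0.0701 CPM, each with the other 4 libraries of its group at 0. In these groups the gap is the whole range by construction, so the rate of about 1 in 20 does not apply to them. The 7 of 70 are therefore not read as an excess. ITGB8 was high in ADC replicate 1 at 11.5 CPM, against 7.02 to 8.23 CPM in the other ADC libraries. SMAD7 was low in PBS replicate 4 at 35.5 CPM, against 43.5 to 44.8 CPM in the other PBS libraries, and SSTR2 was high in PBS replicate 3 at 0.749 CPM, against 0.0883 to 0.267 CPM. The log2 ratio of CTGF to CYR61 was -1.86 in ADC replicate 1, against -1.94 to -1.92 in the other ADC libraries.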

How the results depend on the processing

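THBS1, THBS2, TNC and CTGF kept their direction and call, and FN1, SPARC and CYR61 stayed uncalled, under each of the alternatives run. With no TMM factor, ADC was higher for 1835 genes and lower for 1063, or 63.3% higher against 51.8% in the analysis reported. Without single libraries, the median of the other matricellular genes ranged from 0.132 to 0.284 (highest without PBS replicate 4), and the number of fibrillar matrix genes called lower ranged from 1 to 3 (3 without ADC replicate 4). With the replicate number as a block the 2 ratios kept their differences of -0.15 and 0.20 but could not go below p = 0.0625 (exact sign-flip test over 5 pairs). The block left the members' calls as they were, called 9 instead of 10 fibrillar matrix genes higher and called 6 instead of 5 YAP and TAZ targets lower. Without PBS replicate 1, 8 fibrillar matrix genes were called higher. The number of receptor genes called higher, 9 in the analysis reported, was 8 with DESeq2 and 7 without PBS replicate 2. Without a filter on low counts the median of the other matricellular genes was 0.0984. The median of the YAP and TAZ targets, 0.0476 with all libraries, moved by over 1.5 times without ADC replicate 1, 2 or 5 and without PBS replicate 2, 4 or 5, within 0.0216 to 0.0814. SSTR2 stayed uncalled, with log2 fold changes of 0.30 (without PBS replicate 5) to 1.205 (without PBS replicate 3). Same-numbered libraries did not deviate together (correlations of -0.00717 to 0.0404), so the numbers were not taken as pairs. Splice forms and strand could not be examined, and POSTN and SPP1 were too low to test.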
